A study of Rattus norvegicus with 8 samples.

Results

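The genes for lamin B1, HMGB2, the histone variant H2A.X, the linker histone H1.2, the retinoblastoma protein RB and the methyltransferase EZH2 were followed by RNA-seq in nucleus pulposus cells of the rat, which fill the soft centre of the intervertebral disc. They were chosen by symbol (Lmnb1, Hmgb2, H2ax, H1f2, Rb1 and Ezh2) as chromatin and RB genes tied to cellular senescence. All 6 were among the 4226 genes of the deposited table, and all 6 passed the filter of a mean of at least 1 TPM that left 2890 genes for testing. All cells had a knockdown of SOD1, the superoxide dismutase of the cytosol, followed by transfection with a form of SOD1. That form was SOD1 with the K123R substitution, lysine to arginine (SOD1-K123R, 4 libraries), or wild-type SOD1 (SOD1-WT, 4 libraries), and both groups received 10 mM lactate for 7 days. The study compared how the substitution affects expression in the presence of lactate.

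Some limits of the groups bear on every value. In the table the columns are headed L for SOD1-K123R and Ctrl for SOD1-WT, and no label says what L stands for. Library identifiers are consecutive within each group, which does not by itself tell how libraries were handled. Effects of any handling that followed the groups cannot be told apart from those of the group. Sod1 itself was not among the genes of the deposited table, and no label gives the level of SOD1 after transfection. Whether replicates came from separate cultures is not stated, and p-values therefore reflect the spread between these libraries alone, which may be technical. Nucleus pulposus markers were mixed: 6 of 12 were in the table, with a summed level of 31.1 to 48.8 TPM in SOD1-K123R and 19.9 to 23.7 TPM in SOD1-WT. Acan read 0.50 to 0.720 TPM in SOD1-K123R and 1.23 to 2.16 TPM in SOD1-WT, and Col2a1 read at most 0.08 TPM in SOD1-K123R and was listed at 0 in every SOD1-WT library. Cdh2 was also lower in SOD1-K123R, while Cd24, Sox9 and Car12 were higher, with Cd24 at 22.9 to 38.2 TPM in SOD1-K123R and 8.55 to 11.7 TPM in SOD1-WT.

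Markers of other cell types moved with the group as well. Of 6 annulus fibrosus and tendon markers, the 2 in the table, Scx and Thbs4, summed to 17.0 to 21.7 TPM in SOD1-K123R and 34.6 to 55.15 TPM in SOD1-WT, and both were lower in SOD1-K123R. Mcam, the 1 of 4 pericyte markers in the table, read 22.75 to 30.8 TPM in SOD1-K123R and 6.49 to 10.7 TPM in SOD1-WT. Cd68, the 1 of 6 macrophage and leukocyte markers, read 22.8 to 29.8 TPM in SOD1-K123R and 5.44 to 7.94 TPM in SOD1-WT. Of 5 bone markers 2 were in the table: Runx2 averaged 13.3 ± 2.23 TPM in SOD1-K123R and 4.52 ± 1.03 TPM in SOD1-WT, and Ibsp averaged 1.54 ± 0.509 TPM in SOD1-K123R and 9.22 ± 1.82 TPM in SOD1-WT (SD, n = 4 each). Pecam1, the 1 of 6 endothelial markers, stayed below 0.5 TPM in all 8 libraries. The part of other cell types in the results was not tested.

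Senescent cells are in lasting growth arrest, and their nuclei are known for a changed chromatin. Lamin B1, a filament protein under the inner nuclear membrane, and HMGB2, a protein that bends DNA, are known to be lost from senescent cells, a loss described mainly in human and mouse fibroblasts. RB restrains the E2F transcription factors that drive entry into DNA synthesis, and it does so until cyclin-dependent kinases phosphorylate it. H2A.X is phosphorylated around DNA breaks, linker histone H1.2 binds between nucleosomes, and EZH2 is the catalytic subunit of Polycomb repressive complex 2, which methylates histone H3 on lysine 27. These are properties of the proteins, whereas the values here are mRNA levels in TPM, a unit scaled for transcript length and library size.

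Sequences upstream of the transcription starts are shown for Hmgb2 and H2ax, which were lower in SOD1-K123R, and for H1f2, which was higher. Each run holds the 250 bases before the RefSeq start in GRCr8, written 5′ to 3′ on the gene's strand. Capitals mark matches on either strand to TTTGAA (the core of the cell cycle homology region, CHR), CCAAT (the CCAAT box) or AAACACA (the H1 box, known from promoters of H1 genes).
Hmgb2, chr16:37723951-37724200, minus strand: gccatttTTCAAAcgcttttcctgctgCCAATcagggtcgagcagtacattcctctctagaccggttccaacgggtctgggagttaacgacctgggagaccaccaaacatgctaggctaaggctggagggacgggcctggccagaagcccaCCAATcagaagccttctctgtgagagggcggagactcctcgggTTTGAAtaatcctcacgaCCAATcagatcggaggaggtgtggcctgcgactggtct
H2ax, chr8:53568468-53568717, plus strand: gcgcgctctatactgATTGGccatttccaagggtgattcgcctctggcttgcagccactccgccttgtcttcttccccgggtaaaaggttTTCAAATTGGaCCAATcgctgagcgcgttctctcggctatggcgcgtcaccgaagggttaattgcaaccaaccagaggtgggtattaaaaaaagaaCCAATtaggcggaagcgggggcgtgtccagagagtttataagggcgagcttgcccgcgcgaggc
H1f2, chr17:41820454-41820703, minus strand: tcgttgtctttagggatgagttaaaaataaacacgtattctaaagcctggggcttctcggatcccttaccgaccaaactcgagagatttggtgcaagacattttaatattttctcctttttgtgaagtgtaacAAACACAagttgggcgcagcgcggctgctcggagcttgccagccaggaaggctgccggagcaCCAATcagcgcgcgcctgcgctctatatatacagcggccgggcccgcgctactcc
In H2ax the CHR match at 160 bases before the start shares 1 base with a CCAAT match in reverse, so that they read as 1 stretch of capitals.

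The CHR letters were found upstream of Hmgb2 (243 and 56 bases before the start), H2ax (160) and Lmnb1 (110), 3 of the 6 genes, and in 16.2% of all 33469 RefSeq promoter windows of the same length. CCAAT was found upstream of 5 of the 6, with 4 matches in H2ax, 3 each in Hmgb2 and Ezh2 and 1 each in Lmnb1 and H1f2, against 34.0% of all windows. The H1 box was found in H1f2 alone among the 6, 117 bases before the start, and in 6.08% of all windows. The letters TTTNNCGC, a form of the E2F motif, were in none of the 6 windows and in 4.11% of all. No match was found upstream of Rb1, whose 250 bases were 81.2% G and C. These are matches of letters and not shown sites, and other forms of the motifs or positions past the start were not searched.

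**Figure D1:**
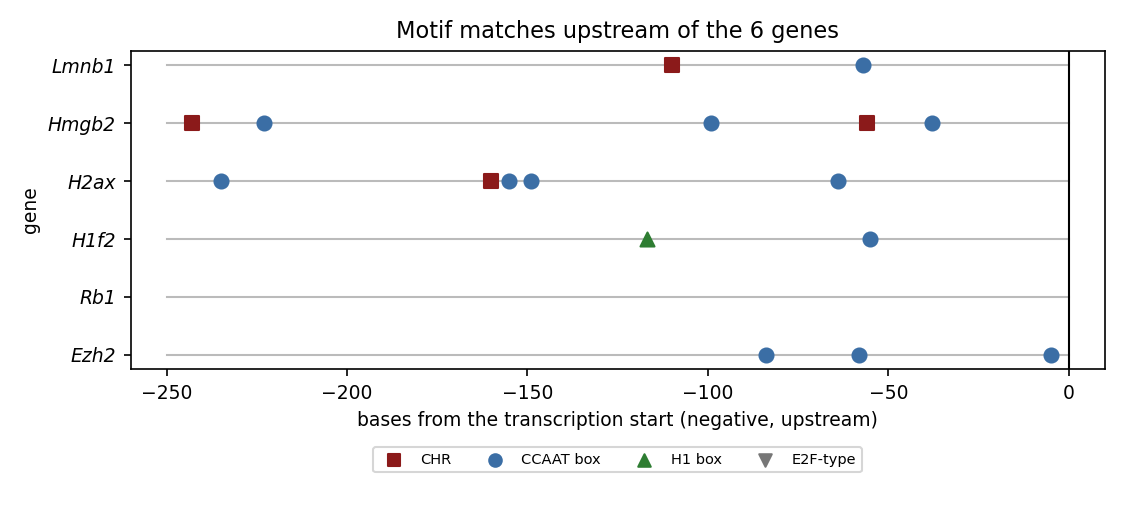
Positions of the matches to the CHR, CCAAT box, H1 box and E2F-type letters (symbols) along the 250 bases upstream of each gene's RefSeq start (horizontal axis, in bases; 1 row per gene). CHR matches lie upstream of Lmnb1, Hmgb2 and H2ax, the H1 box upstream of H1f2, and no match lies upstream of Rb1.

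In the comparison of SOD1-K123R with SOD1-WT, Lmnb1, Hmgb2, H2ax and Rb1 were lower and H1f2 was higher, each with groups that did not overlap, while the groups overlapped for Ezh2. By limma with Benjamini-Hochberg adjustment over all tested genes, 5 members were lower and 1 was higher, and 3 and 1 after median-of-ratios scaling. Of all 2890 genes tested, 51.1% were lower and 44.6% higher by the same rule, 95.7% in all, and the groups did not overlap for 91.4% (48.8% lower and 42.6% higher). The share of members that passed is therefore close to that of the table, whose rows may have been chosen for a difference. Unless another setting is named, a gene's log2 fold change is SOD1-K123R minus SOD1-WT after adding 1 to each TPM, a step that shrinks differences of genes at low TPM. The median log2 fold change of all genes tested was -0.49, and median-of-ratios scaling shifted this median by 0.35 upward. The median rests on the filter: it was -0.14 with none and 0.27, the opposite sign, where the filter was a mean of 5 TPM or more. In bulk RNA, fewer cells of a type and less RNA per cell cannot be told apart.

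**Figure D2:**
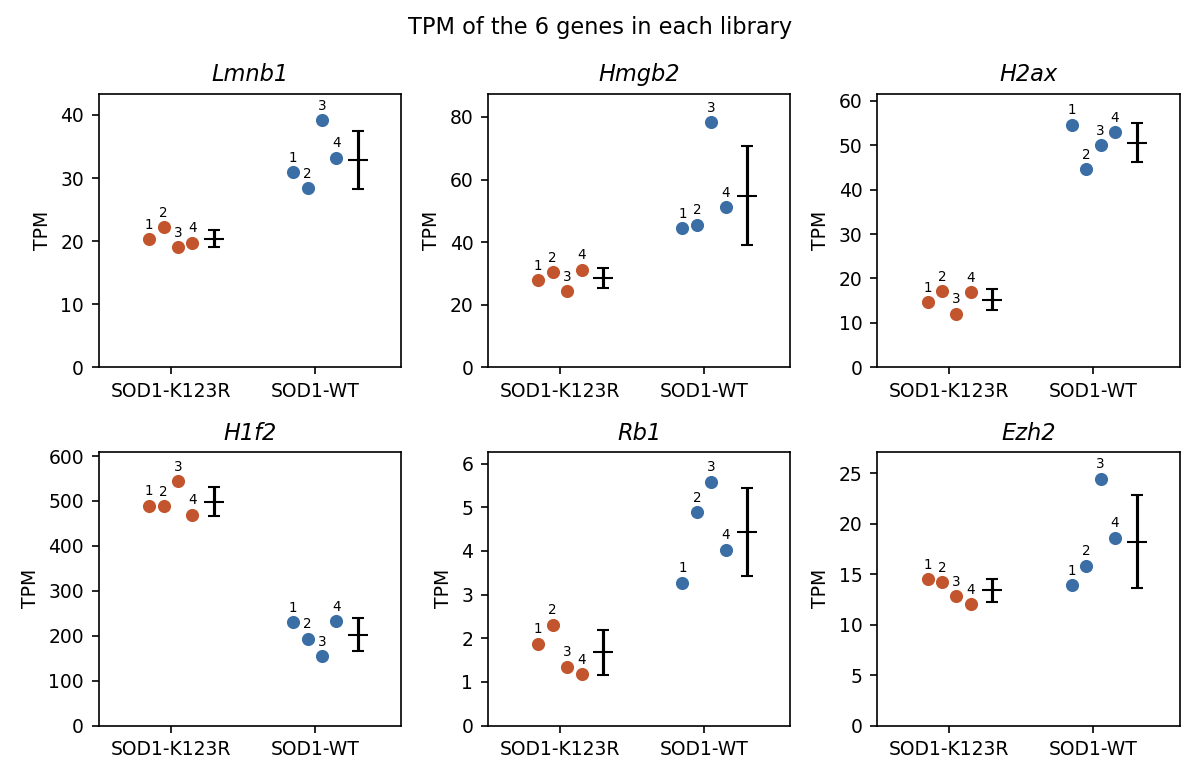
TPM (vertical axis, from 0) of each gene in the 4 SOD1-K123R libraries (left, red) and the 4 SOD1-WT libraries (right, blue), with replicate numbers, and the group mean ± SD in black. Every SOD1-K123R library lies below every SOD1-WT library for Lmnb1, Hmgb2, H2ax and Rb1 and above for H1f2, and SOD1-WT replicate 3 is the highest of its group for Lmnb1, Hmgb2, Rb1 and Ezh2.

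Lmnb1, the lamin gene, read 20.3, 22.2, 19.1 and 19.8 TPM in SOD1-K123R replicates 1 to 4 and 30.9, 28.4, 39.2 and 33.2 TPM in SOD1-WT replicates 1 to 4. The SOD1-K123R libraries lay close together and below all of SOD1-WT, with means of 20.3 ± 1.36 TPM in SOD1-K123R and 32.9 ± 4.62 TPM in SOD1-WT (SD, n = 4 each). SOD1-K123R thus held 61.8% of the SOD1-WT level, a log2 fold change of -0.66 (SE 0.11; limma adjusted p = 6.69e-05). The exact two-sided permutation test gave p = 0.0286, the smallest that 4 against 4 libraries allow. Of all genes tested, 46.9% had a more negative log2 fold change. By size regardless of sign Lmnb1 ranked 2443 of 2890, so its difference was among the smaller ones of this table. Few genes there changed little: only 8.44% of those tested had a log2 fold change under 0.5 in size. After median-of-ratios scaling the log2 fold change was -0.20 and no longer passed (limma adjusted p = 0.1001). It was -0.71 after quantile normalization and -0.96 with columns rescaled to the same sum, and passed in both.

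Related genes of the nuclear lamina and envelope were lower as well. Of 16 listed genes, 4 were in the table and tested, and all 4 were lower, Lmnb1 among them, with a median of -0.71 for the other 3. Lmnb2, which encodes the other B-type lamin, averaged 7.76 ± 1.38 TPM in SOD1-K123R and 19.5 ± 1.29 TPM in SOD1-WT (log2 fold change -1.24, SE 0.12; limma adjusted p = 8.42e-07). Syne1 and Syne2, giant nesprins that link the nucleus to the cytoskeleton, had log2 fold changes of -0.67 and -0.71. Lmna, which encodes the A-type lamins, was not among the genes in the table.

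Hmgb2 read 27.8, 30.4, 24.3 and 31.2 TPM in SOD1-K123R replicates 1 to 4 and 44.4, 45.6, 78.3 and 51.1 TPM in SOD1-WT replicates 1 to 4. The groups did not overlap, and SOD1-WT replicate 3 stood well above the rest of its group. Means were 28.4 ± 3.13 TPM in SOD1-K123R and 54.8 ± 15.9 TPM in SOD1-WT (SD, n = 4 each), a log2 fold change of -0.89 (SE 0.16; limma adjusted p = 0.000157, exact permutation p = 0.0286). Without SOD1-WT replicate 3 the log2 fold change was -0.71 and still passed, and after median-of-ratios scaling it was -0.42 (limma adjusted p = 0.00938).

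The other high-mobility-group genes were divided. Of 9 listed genes 4 were tested, Hmgb2 among them, and of the 3 others 1 was lower, 1 was higher and 1 did not pass. Hmgn1, a nucleosome-binding protein, averaged 88.9 ± 4.51 TPM in SOD1-K123R and 206 ± 21.3 TPM in SOD1-WT (log2 fold change -1.20). Hmga1, an architectural protein that binds AT-rich DNA and has been found in heterochromatin foci of senescent human fibroblasts, went the other way, with 1549.9 ± 153 TPM in SOD1-K123R and 760.4 ± 88.4 TPM in SOD1-WT (log2 fold change 1.03, SE 0.10; limma adjusted p = 9.68e-07). Hmgn5, another nucleosome-binding protein, had a log2 fold change of -0.49 (SE 0.25; limma adjusted p = 0.0762), and it passed without SOD1-WT replicate 1 (-0.75), without SOD1-K123R replicate 2 (-0.65) and with columns rescaled to the same sum (-0.75).

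H2ax and H1f2, the histone genes among the 6, went in opposite directions. H2ax read 14.6, 17.1, 12.0 and 16.95 TPM in SOD1-K123R replicates 1 to 4 and 54.7, 44.65, 50.03 and 52.9 TPM in SOD1-WT replicates 1 to 4. Every SOD1-K123R library was far below every SOD1-WT library. The means of 15.2 ± 2.39 TPM in SOD1-K123R and 50.6 ± 4.39 TPM in SOD1-WT (SD, n = 4 each) gave the most negative log2 fold change of the 6, -1.68 (SE 0.12; limma adjusted p = 4.30e-08, exact permutation p = 0.0286). Only 9.41% of the genes tested had a more negative value, and over all 16 alternatives it stayed between -1.98 and -1.22.

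H1f2 read 489.6, 489, 544 and 469 TPM in SOD1-K123R replicates 1 to 4 and 230.2, 193, 155 and 232 TPM in SOD1-WT replicates 1 to 4. It was the most abundant of the 6 genes in both groups and the only one higher in SOD1-K123R. Means were 498 ± 32.3 TPM in SOD1-K123R and 203 ± 36.5 TPM in SOD1-WT (SD, n = 4 each), a 2.46-fold difference (log2 fold change 1.31, SE 0.12; limma adjusted p = 4.16e-07, exact permutation p = 0.0286). The value was 0.99 to 1.79 over all 16 alternatives and passed in each. As background, mRNAs of most H1 genes are made in S phase and end in a stem-loop without a poly(A) tail. The labels do not say how RNA was selected, and the part of this in the value of H1f2 was not tested. Of 18 listed linker histones, histone variants and histone mRNA factors, only 1 more was in the table: H1f4, another linker histone, averaged 0.673 ± 0.274 TPM in SOD1-K123R and 0.125 ± 0.134 TPM in SOD1-WT, below the filter.

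Genes that act with H2A.X at DNA breaks were lower in each case tested. Of 19 listed, 6 were in the table and 5 were tested, and all 5 were lower, with a median log2 fold change of -0.91, against 4 after median-of-ratios scaling and 3 after quantile normalization. Mdc1, the adaptor that binds phosphorylated H2A.X, averaged 4.52 ± 0.767 TPM in SOD1-K123R and 11.03 ± 0.895 TPM in SOD1-WT (log2 fold change -1.13, SE 0.13). Mre11, a nuclease of the break-sensing complex, had a log2 fold change of -0.91 and Brca1, a repair ubiquitin ligase, of -0.94. Prkdc, the catalytic subunit of a kinase that phosphorylates H2A.X, had -0.67 (limma adjusted p = 0.00635) with overlapping groups, and quantile normalization ended its call (-0.38, limma adjusted p = 0.0545). The remaining tested gene, Atm, named after its values were seen, had -0.55 (limma adjusted p = 0.0121), also with overlapping groups. Phosphorylated H2A.X itself was not measured.

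Rb1 was the least abundant of the 6. It read 1.88, 2.31, 1.35 and 1.18 TPM in SOD1-K123R replicates 1 to 4 and 3.27, 4.89, 5.58 and 4.03 TPM in SOD1-WT replicates 1 to 4. The groups did not overlap, although each varied by much relative to its mean (coefficients of variation of 30.7% in SOD1-K123R and 22.7% in SOD1-WT). Means were 1.68 ± 0.515 TPM in SOD1-K123R and 4.44 ± 1.01 TPM in SOD1-WT (SD, n = 4 each), and SOD1-K123R held 37.8% of the SOD1-WT level (log2 fold change -1.02, SE 0.17; limma adjusted p = 8.35e-05, exact permutation p = 0.0286). At this level the pseudocount weighs on the size: with 0.1 in place of 1 the log2 fold change was -1.37. It was -0.68 after median-of-ratios scaling and -0.71 after quantile normalization, and passed in each of these 3 fits.

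Around Rb1, the pocket protein and E2F list was mostly lower. Of 19 listed genes 10 were tested, of which 9 were lower, Rb1 among them, and 1 was higher, with a median of -1.30 for the 9 others. E2f1, an activator of S-phase genes that RB binds, averaged 4.04 ± 0.556 TPM in SOD1-K123R and 24.0 ± 2.59 TPM in SOD1-WT (log2 fold change -2.31). Tfdp1, the dimer partner of E2F proteins, averaged 27.9 ± 1.03 TPM in SOD1-K123R and 70.4 ± 3.47 TPM in SOD1-WT (log2 fold change -1.30), E2f6, a repressor E2F that does not bind RB, had -1.64, and Foxm1, a transcription factor of mitotic genes, had -1.75. The highest limma adjusted p of these 4 was 5.95e-08. Singled out after their values were seen, the pocket protein gene Rbl2 had a log2 fold change of -0.70, and the 1 higher gene was Lin37, a subunit of the repressive DREAM complex (0.36), whose call ended after quantile normalization and with columns rescaled to the same sum.

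Genes that set the phosphorylation of RB went both ways. Of 17 listed, 8 were tested, of which 5 were higher and 3 were lower. The inhibitors of cyclin-dependent kinases in the table were higher: Cdkn1a averaged 1046 ± 47.8 TPM in SOD1-K123R and 236 ± 46.2 TPM in SOD1-WT, and Cdkn1b averaged 90.6 ± 9.42 TPM in SOD1-K123R and 25.3 ± 2.26 TPM in SOD1-WT. Cdkn2b and Cdkn1c, named after their values were seen, had log2 fold changes of 0.65 and 1.01. Among cyclins, Ccnd1, the D-type cyclin whose kinases begin RB phosphorylation, averaged 856 ± 57.0 TPM in SOD1-K123R and 409 ± 45.4 TPM in SOD1-WT (log2 fold change 1.07). Ccne1, which acts later in the transition to S phase, averaged 4.04 ± 0.694 TPM in SOD1-K123R and 16.4 ± 1.44 TPM in SOD1-WT (log2 fold change -1.79). Cdkn2a, which encodes the senescence-associated inhibitor p16, and the kinases Cdk2, Cdk4 and Cdk6 were not among the genes in the table.

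Ezh2 differed least. It read 14.5, 14.2, 12.8 and 12.0 TPM in SOD1-K123R replicates 1 to 4 and 13.9, 15.8, 24.5 and 18.6 TPM in SOD1-WT replicates 1 to 4. The groups overlapped, since SOD1-WT replicate 1 lay below SOD1-K123R replicates 1 and 2. Means were 13.4 ± 1.17 TPM in SOD1-K123R and 18.2 ± 4.59 TPM in SOD1-WT (SD, n = 4 each). The log2 fold change of -0.39 (SE 0.15) passed in limma (adjusted p = 0.0244) but not in the exact permutation test (p = 0.0857). The limma call was lost without SOD1-WT replicate 3 (-0.25) or replicate 4 (-0.37), without SOD1-K123R replicate 3 (-0.37) or replicate 4 (-0.34), and after quantile normalization (-0.27), and the sign turned after median-of-ratios scaling (0.063, limma adjusted p = 0.615).

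Other Polycomb genes were mainly higher in SOD1-K123R. Of 28 listed genes of Polycomb complexes and of the demethylases of lysine 27, 9 were tested, of which 7 were higher and 2, Ezh2 and Phf19, were lower. The median log2 fold change of the 8 other than Ezh2 was 1.00. Rnf2, the ubiquitin ligase of Polycomb repressive complex 1, averaged 90.5 ± 13.2 TPM in SOD1-K123R and 36.6 ± 3.87 TPM in SOD1-WT (log2 fold change 1.28). The accessory subunits of complex 2 parted: Phf1 had a log2 fold change of 1.45 and its relative Phf19 of -1.49. Kdm6b, a demethylase that removes the mark EZH2 makes, had a log2 fold change of 1.10. Eed and Suz12, the core partners of Ezh2, were not analysed here.

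Listed genes of heterochromatin and of histone chaperones were mostly lower. Of 21 listed, 7 were tested, of which 5 were lower, 1 was higher and 1 did not pass, with a median of -1.06. Chaf1b and Chaf1a, subunits of the assembly factor that deposits histones behind the replication fork, had log2 fold changes of -2.11 and -1.13, and Asf1b, a chaperone that hands histones to it, had -1.64. Hira, the chaperone for replication-independent deposition, which acts in senescence-associated heterochromatin foci of human cells, averaged 5.24 ± 0.945 TPM in SOD1-K123R and 11.9 ± 0.826 TPM in SOD1-WT (-1.06; named after its values were seen). Ubn1, its partner in the same complex, averaged 32.2 ± 1.74 TPM in SOD1-K123R and 14.6 ± 1.07 TPM in SOD1-WT (1.09). Hells, a chromatin remodeller, had -0.27 (limma adjusted p = 0.225), and its sign turned after median-of-ratios scaling (0.11) and quantile normalization (0.067). It passed as lower with columns rescaled to the same sum (-0.51) and without SOD1-K123R replicate 2 (-0.45).

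**Figure D3:**
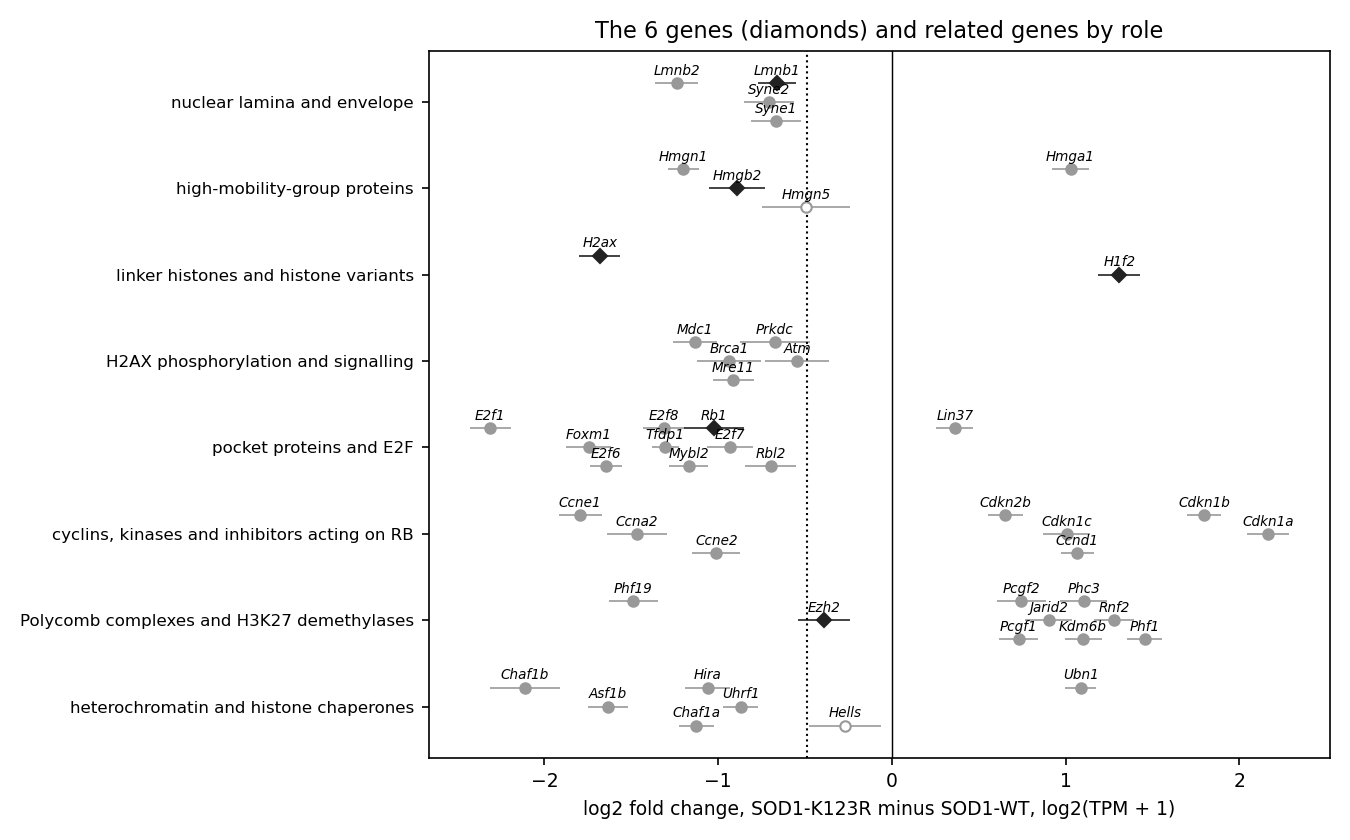
Log2 fold change of SOD1-K123R minus SOD1-WT on log2(TPM + 1) (horizontal axis, bars are SE) for the 6 genes (black diamonds) and related genes (grey circles) by list; open symbols did not pass, and the dotted line is the median of all genes tested, -0.49 (0.27 with the filter at a mean of 5 TPM or more). Lamina, H2A.X partner and E2F genes lie mostly left of 0, and Polycomb genes other than Ezh2 and Phf19 lie right of it.

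Over all lists, with the 6 members left out, 26 of 43 tested genes were lower, 15 were higher and 2 did not pass. Their median was -0.71, beside -0.49 for all genes tested, of which 51.1% were lower and 44.6% higher. With the filter at a mean of 5 TPM or more, 18 related genes were lower and 13 higher. The median of all genes tested was then 0.27, with 897 lower and 948 higher. After median-of-ratios scaling 25 of the related genes were lower and 15 were higher.

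The 6 genes kept the order of their levels at the top and bottom in both groups. In SOD1-K123R the order of TPM was H1f2, Hmgb2, Lmnb1, H2ax, Ezh2 and Rb1, and H2ax and Ezh2 overlapped (H2ax was above in 3 of 4 libraries). In SOD1-WT it was H1f2, Hmgb2, H2ax, Lmnb1, Ezh2 and Rb1, and Hmgb2 and H2ax overlapped (Hmgb2 was above in 2 of 4 libraries). The place of H2ax relative to Lmnb1 thus differed: it was below Lmnb1 in all 4 SOD1-K123R libraries and above it in all 4 SOD1-WT libraries.

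Ratios of TPM between 2 members within a library do not depend on how libraries are scaled, and they give the order of the differences. These ratios are of TPM with nothing added. The log2 ratio of H2ax to H1f2 was -5.05 ± 0.325 in SOD1-K123R and -1.99 ± 0.239 in SOD1-WT (SD, n = 4 each), a difference of -3.06 (SE 0.20) between the groups. The ratio of H2ax to Lmnb1 was -0.43 ± 0.186 in SOD1-K123R and 0.63 ± 0.197 in SOD1-WT, a difference of -1.06 (SE 0.14). In 11 of the 15 pairs the ratios of the groups did not overlap, and the share over all pairs of genes was not computed. The 11 include all 5 pairs with H1f2, which set the only higher member against lower ones. The 4 pairs that overlapped were neighbours in size of difference: H2ax and Rb1 (difference -0.32, SE 0.31), Rb1 and Hmgb2 (-0.51, SE 0.26), Hmgb2 and Lmnb1 (-0.23, SE 0.12), and Lmnb1 and Ezh2 (-0.27, SE 0.11). Pairs with Rb1 depended on the scale: with 1 added to each TPM the difference was -0.66 for H2ax and Rb1, -0.13 for Rb1 and Hmgb2, -0.36 in place of -0.74 for Rb1 and Lmnb1, and -0.63 in place of -1.01 for Rb1 and Ezh2. These ratios are given as a description, with no test.

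**Figure D4:**
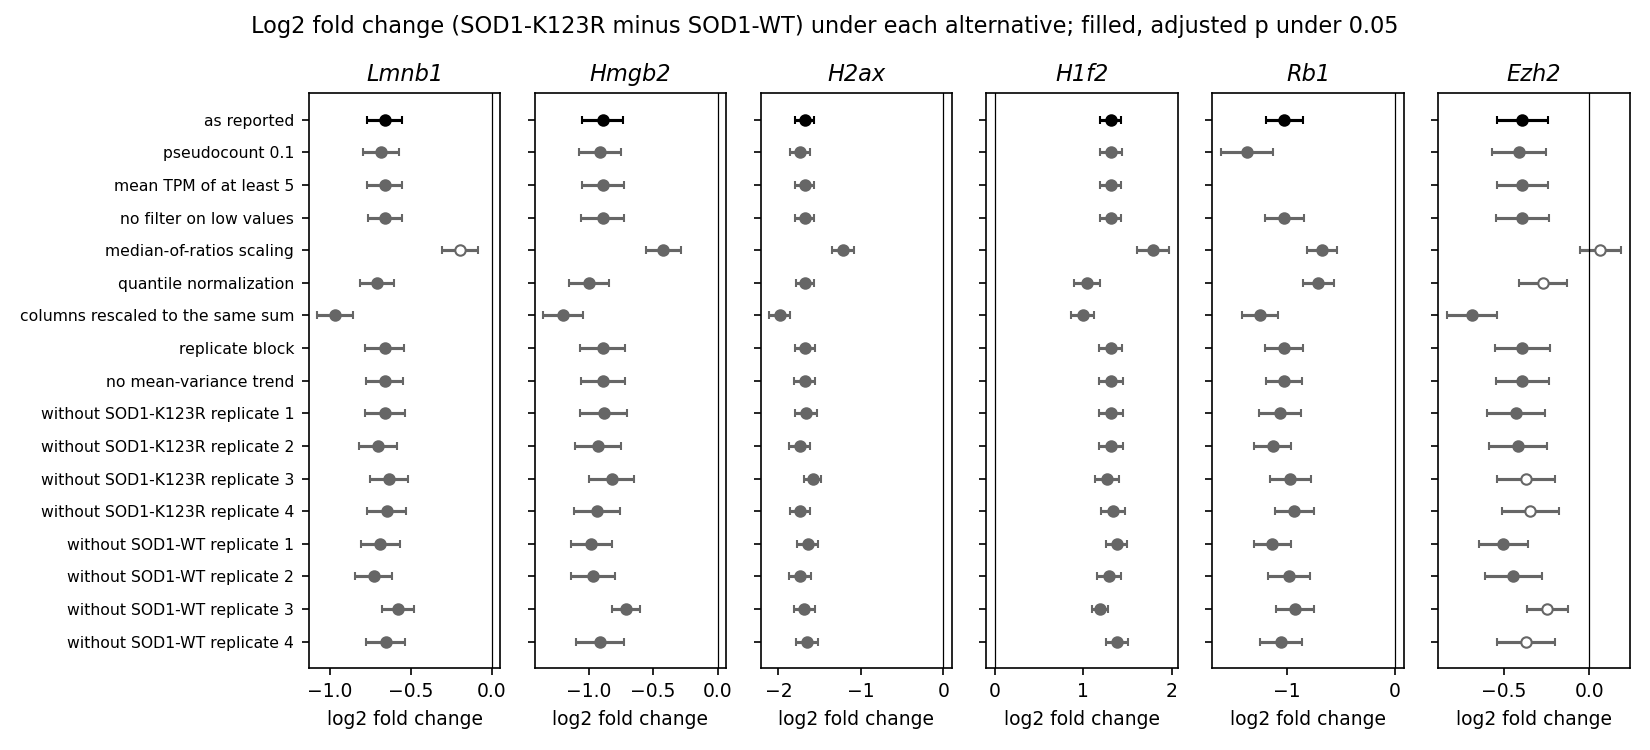
Log2 fold change (horizontal axis, a scale per panel; bars are SE) of each gene as reported (black) and under each alternative in the processing (grey, 1 row each); filled circles have an adjusted p under 0.05. H2ax, H1f2, Hmgb2 and Rb1 are filled in every row they have, Lmnb1 is open at -0.20 after median-of-ratios scaling, and Ezh2 is open in 6 rows.

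Libraries within a group also differed, and the members did so in part together. SOD1-WT replicate 3 was the highest of its group for Lmnb1, Hmgb2, Rb1 and Ezh2 and the lowest for H1f2. On the log2(TPM + 1) scale it deviated from its group mean by 0.54 for Hmgb2, 0.44 for Ezh2, 0.29 for Rb1, 0.25 for Lmnb1 and -0.37 for H1f2, and H2ax stayed at -0.01. That library was also the highest of its group for 16 of the 26 related genes that were lower (61.5%) and for 43.5% of all genes that were lower. In SOD1-K123R, replicate 3 was the lowest for Lmnb1, Hmgb2 and H2ax and the highest for H1f2, and replicate 4 was the lowest for Rb1, Ezh2 and H1f2.

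**Figure D5:**
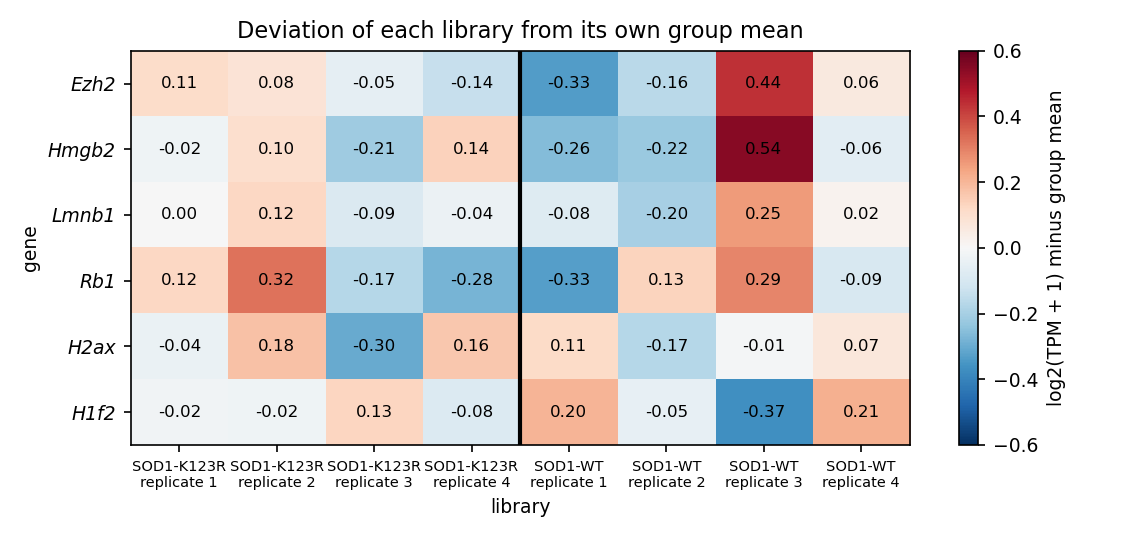
Difference between log2(TPM + 1) in a library and its own group mean for the 6 genes (rows) in 4 SOD1-K123R and 4 SOD1-WT libraries (columns; red above, blue below). SOD1-WT replicate 3 is above its group mean for Ezh2, Hmgb2, Lmnb1 and Rb1 (0.25 to 0.54), near it for H2ax (-0.01) and below it for H1f2 (-0.37).

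Genes with the most similar profile were sought by the root mean square difference between centred log2(TPM + 1) profiles over the 8 libraries, among 2573 other tested genes with a symbol. With 2 groups of libraries this likeness follows mainly the size of the group difference. Closest to Lmnb1 were Hirip3, a HIRA-interacting protein (0.0811), and Cpm, a carboxypeptidase (0.0985). For Hmgb2 they were Kif14, a mitotic kinesin (0.0909), and Mlh3, a mismatch repair protein (0.104), and for H2ax they were Meox1, a homeobox factor (0.0813), and Prpf31, a splicing factor (0.0849). Rb1 was closest to Sypl1, a synaptophysin-like vesicle protein (0.0767), and Cast, which encodes calpastatin (0.0824). The nearest to H1f2 were Jund, an AP-1 subunit (0.0824), and Smad6, an inhibitory SMAD (0.0941), and the nearest to Ezh2 were Wdr76, a WD repeat protein (0.0808), and Ercc6l, a spindle checkpoint helicase (0.0826).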

How the data were processed

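Rat nucleus pulposus cells were profiled by paired-end RNA-seq. The authors deposited a gene table of TPM, made with RSEM per the file headers and the table's name. DESeq2 appears without a role per the submitters' processing notes. The aligner, genome build, annotation, strand setting and choice of rows are details not given in the sources used here, and TPM keep no depth. Genes averaging 1 TPM or more across libraries (2890 of 4226) were fitted as log2(TPM + 1), SOD1-K123R minus SOD1-WT, with limma 3.58.1 (mean-variance trend) in R 4.3.3. The fit was tested on simulated data in which few genes changed, unlike here, so that test checks the code alone. Tests were two-sided, with Benjamini-Hochberg adjustment over all tested genes and a threshold of 0.05. Single members were also given an exact permutation test. SE are limma's moderated standard errors.

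The 6 members, the related-gene lists, the motifs and the comparisons were chosen with earlier results of these data known. From each list were named the members, up to 4 further tested genes with the smallest adjusted p, and every tested gene that did not pass. Others are marked as chosen after their values were seen. A result on 1 listed gene is not reported here, and the gene was left out of its list. Within-library ratios between members were added after seeing the data. Upstream sequences are from a RefSeq promoter table (GRCr8), which held all 6 members. In RefSeq GRCr8 the spans of Rb1, H1f2 and Ezh2 overlap other genes (Lpar6 and a noncoding RNA, H4cl1, and Cul1). Histone H1 genes and Hmgb2 have close relatives, and where reads were shared among these, TPM are uncertain. The labels do not say that a replicate number pairs libraries, so the fit had no replicate block. The 4 correlations between same-numbered libraries' deviations ran from -0.35 to 0.05. Those between libraries of different number ran from -0.40 to 0.44, so these values cannot settle pairing. Alternatives were another pseudocount, other filters, 3 other scalings, a replicate block, no trend and leaving out each library. Over the 4226 genes, TPM of a library summed to 235371 to 243393 in SOD1-K123R and 187515 to 198656 in SOD1-WT.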

Additional observations from a re-analysis of the deposited data

Results flagged for a closer look

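Among 66 sets of 4 libraries examined for the 6 genes and the named related genes, 1 had a library far from the rest, where chance gives about 1 in 20. Syne1, which encodes a nesprin of the nuclear envelope, had 3.15 TPM in replicate 3 of SOD1-K123R, beside 3.83 to 3.94 TPM in replicates 1, 2 and 4, all below the 4.90 to 8.04 TPM of SOD1-WT. Hmgb2 in SOD1-WT replicate 3 (78.3 TPM beside 44.4 to 51.1 TPM) did not reach the same limit.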

How the results depend on the processing

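H2ax, H1f2, Hmgb2 and Rb1 kept their direction and passed under every alternative in which they were tested (Rb1 lay below a mean of 5 TPM and has no value there). Lmnb1 lost its call after median-of-ratios scaling alone (-0.20). Ezh2 turned sign there (0.063), lost its call after quantile normalization (-0.27), and ran from -0.50 to -0.25 when single libraries were left out, with 4 of 8 such fits not passing. Lower members therefore numbered 3 after median-of-ratios scaling, against 5 as reported. At a mean of at least 5 TPM, where fewer genes were tested, lower genes in the whole table numbered 897, against 1476. Higher genes numbered 948 there, against 1289. Hells turned sign after median-of-ratios scaling (0.11) and quantile normalization (0.067). It passed as lower with columns rescaled to the same sum (-0.51) and without SOD1-K123R replicate 2 (-0.45). The cause of these changes was not tested. With a replicate block 2743 genes passed, against 2765 without it, 5 members were lower and 1 was higher, so the block changed no member's call. Correlations between deviations of same-numbered libraries were 0.05 at most, and 0 of 4 SOD1-K123R libraries correlated best with their own number. Libraries of different number spanned -0.40 to 0.44, so these correlations cannot settle pairing. Without counts the depth is unknown, and the counting error of Rb1, at 1 to 6 TPM, cannot be given.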
